A study of Homo sapiens with 6 samples.

Results

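EHF, KRT80, PROM2, LCN2, SLPI and KLK5 are 6 genes of surface epithelia that encode, in that order, a transcription factor, a keratin, a membrane protein of cell protrusions and 3 secreted proteins. They were selected on the measured difference between the BRCA2 knockout and wild-type arrays of this series, so the differences given for them below are a description and carry no test. Each gene was represented by a probe set annotated with that symbol alone; 1 such probe set was found for each of the 6, of 13139 genes measured in this way. The samples were HCT116 cells, a human colon carcinoma line grown in serum, of 2 genotypes. One was a BRCA2-deficient derivative in which both alleles of BRCA2, a mediator of homologous recombination, had been targeted in turn, and the other was the isogenic wild-type line. There were 3 arrays of BRCA2 knockout cells and 3 of wild-type cells, with no treatment beyond the genotype. The labels call the arrays of a genotype technical replicates, so that p-values measure the spread between arrays only. Each genotype is 1 line, and what BRCA2 loss did and what else had come to distinguish the lines cannot be told apart. The level of the targeted gene was not analysed here, and the genotype labels were therefore not checked against it.

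As background, surface epithelia keep a barrier through keratin filaments, cell junctions and a secreted layer of antimicrobial proteins, proteases and protease inhibitors. EHF belongs to the epithelium-specific branch of the ETS family, which also holds ELF3, ELF5 and SPDEF and acts in the differentiation of glandular and barrier epithelia. In colon carcinoma cells, genes of this kind are known to respond to differentiation state and to inflammatory signals that act through NF-kB.

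Values are deposited log2 summaries of each probe set, in which a step of 1 is a doubling of signal, and differences are knockout minus wild type. Array medians lay at 7.41, 7.80 and 7.41 in knockout arrays 1, 2 and 3, and at 7.71, 7.36 and 7.48 in wild-type arrays 1, 2 and 3. Knockout array 2 and wild-type array 1 thus had the highest medians. Across probe sets these 2 arrays correlated with each other at r = 0.924, knockout array 2 with the other knockout arrays at 0.876 and 0.893, and wild-type array 1 with the other wild-type arrays at 0.896 and 0.925. Markers of colon epithelium, 10 genes in all, had a mean level per array of 8.70 to 9.36 in knockout and 8.55 to 8.96 in wild type, none passed the test described below, and 1 was higher with an unadjusted p under 0.05. Of the 10, 4 were higher on every knockout array than on any wild-type array (KRT8, KRT18, KRT19 and CDH1) and 0 were lower in that way. Of all 13139 genes 14.1% were higher and 7.08% lower in that way, and 8.29% were higher with an unadjusted p under 0.05. These counts use the deposited values. With array medians subtracted, CDH1 still had no overlap, but KRT8, KRT18 and KRT19 did overlap. Of all genes 11.5% were higher without overlap after that centring. The largest difference among the 10 was that of the E-cadherin gene CDH1 (1.15 ± 0.24). The opposite sign was found for the intestinal antigen gene GPA33, which averaged 5.91 ± 0.58 in knockout and 6.80 ± 0.44 in wild type, with overlap. Among the others the simple keratin gene KRT8 averaged 13.01 ± 0.09 in knockout and 12.35 ± 0.42 in wild type, and the intestinal cadherin gene CDH17 averaged 5.05 ± 0.85 in knockout and 4.44 ± 0.72 in wild type (SD, n = 3 arrays each).

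All 6 genes were higher on each knockout array than on any wild-type array, by differences between 2.30 and 4.64 on the log2 scale. Their median difference was 2.81, against 0.07 over all 13139 genes, and ordered by difference over those genes they held ranks from 11 for KRT80 to 70 for EHF. In the limma fit over all probe sets, where 111 probe sets or 0.57% passed an adjusted p of 0.05 (0.416% as higher and 0.154% as lower), all 6 passed as higher, which 0.479% of genes did. All knockout arrays lay above all wild-type arrays for 6 of the 6 and for 14.1% of genes. Both counts follow from how the genes were chosen, and nothing is read from them. EHF, PROM2 and SLPI did not pass when knockout array 1, knockout array 3 or any 1 of the wild-type arrays was left out. That left 3 of the 6, and KRT80 alone passed without both arrays of highest median. With same-numbered arrays as a block 0 of the 6 passed. These calls use the values on which the genes were chosen and are a description too. Each array was then centred on its own median, which left the differences between 2.28 and 4.61.

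**Figure D1:**
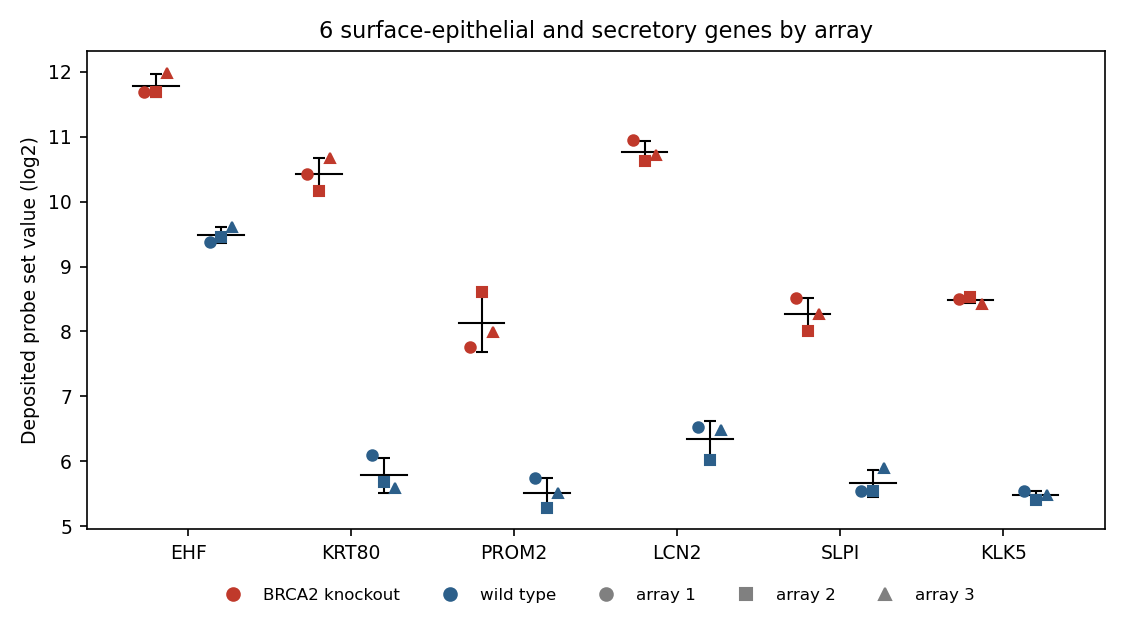
Deposited log2 probe set value (vertical axis) of EHF, KRT80, PROM2, LCN2, SLPI and KLK5 on each of the 6 arrays, with BRCA2 knockout (red) left of wild type (blue), array numbers by symbol, and the mean and SD of 3 arrays in black. The knockout arrays lay above the wild-type arrays for every gene, with gaps from 2.02 for PROM2 to 4.11 for LCN2 on these deposited values, and from 1.75 for EHF to 3.99 for KRT80 after centring on array medians.

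EHF, the transcription factor of the set, had values of 11.69, 11.68 and 11.99 on knockout arrays 1, 2 and 3, against 9.38, 9.46 and 9.61 on wild-type arrays 1, 2 and 3. The gene was thus already measured well up the scale in wild-type cells, and within each genotype array 3 was the highest. The means were 11.79 ± 0.17 in knockout and 9.49 ± 0.12 in wild type (SD, n = 3 each), a difference of 2.30 ± 0.25 (SE of the fit), or 4.93-fold. It was the smallest difference of the 6, and the lowest knockout array stood 2.07 above the highest wild-type array.

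KRT80, which encodes a type II keratin of differentiating epithelia, had values of 10.43, 10.17 and 10.67 on the knockout arrays, against 6.09, 5.68 and 5.58 on the wild-type arrays. Knockout array 2 was the lowest of its genotype and wild-type array 1 the highest, so that the 2 arrays of highest median lay nearest to each other. The means were 10.42 ± 0.25 in knockout and 5.79 ± 0.27 in wild type, and the difference of 4.64 ± 0.28 corresponded to 24.9-fold. Without that pair of arrays the difference of KRT80 was 4.92.

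PROM2, which encodes a prominin, a membrane glycoprotein found on plasma membrane protrusions, had values of 7.76, 8.61 and 8.0 on the knockout arrays, against 5.74, 5.28 and 5.51 on the wild-type arrays. It varied most among the knockout arrays, with a range of 0.85 and array 2 the highest. The means were 8.12 ± 0.44 in knockout and 5.51 ± 0.23 in wild type, a difference of 2.61 ± 0.31, or 6.12-fold. Centred on the array medians, the knockout values lay at 0.35, 0.81 and 0.58 above the median and the wild-type values at -1.98, -2.07 and -1.97, which left array 2 highest.

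LCN2, the first of the secreted proteins, encodes lipocalin 2, which binds bacterial siderophores and so withholds iron. Its values were 10.96, 10.63 and 10.71 on the knockout arrays, against 6.52, 6.01 and 6.48 on the wild-type arrays. The lowest knockout array stood 4.11 above the highest wild-type array, and 3.83 above it after centring on array medians. The means were 10.77 ± 0.17 in knockout and 6.34 ± 0.28 in wild type, and the difference of 4.43 ± 0.27 corresponded to 21.5-fold.

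SLPI encodes a secreted inhibitor of neutrophil elastase and other leukocyte proteases, built of WAP (whey acidic protein) domains. Its values were 8.51, 8.01 and 8.27 on the knockout arrays, against 5.54, 5.54 and 5.90 on the wild-type arrays. Knockout array 2 was the lowest of its genotype here too. The means were 8.26 ± 0.25 in knockout and 5.66 ± 0.21 in wild type, a difference of 2.60 ± 0.27, or 6.07-fold.

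KLK5 encodes a trypsin-like kallikrein that is known in skin for cleaving desmosomal proteins and activating other kallikreins. Its values were 8.50, 8.53 and 8.43 on the knockout arrays, against 5.55, 5.40 and 5.47 on the wild-type arrays. These were the most even replicates of the 6 genes, with ranges of 0.11 in knockout and 0.15 in wild type. The means were 8.49 ± 0.05 in knockout and 5.47 ± 0.07 in wild type, a difference of 3.01 ± 0.23, or 8.08-fold.

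The 6 genes did not share a pattern across the arrays of 1 genotype. Deviations from the knockout mean on array 2 were 0.49 for PROM2 and 0.05 for KLK5, and -0.11, -0.25, -0.14 and -0.26 for EHF, KRT80, LCN2 and SLPI. On wild-type array 1, the other array of high median, they were positive for KRT80 (0.31), PROM2 (0.23), LCN2 (0.18) and KLK5 (0.07), and negative for EHF (-0.10) and SLPI (-0.12). Profiles centred on their own mean over the 6 arrays were closest for EHF and SLPI, at a root mean square distance of 0.24 log2 units, and for KRT80 and LCN2 (0.25), and farthest apart for EHF and KRT80 (1.19), a distance that holds the unequal size of the genotype difference.

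The genes lie on 6 different chromosomes, namely 11 (EHF), 12 (KRT80), 2 (PROM2), 9 (LCN2), 20 (SLPI) and 19 (KLK5). RefSeq promoter sequences of GRCh38.p14 were matched for 4 of them, EHF with 2 start sites and PROM2, LCN2 and KLK5 with 1 each. The 250 bases before each start were searched on both strands for 7 short motifs, with no overlap between matches in these promoters. The motifs were NF-kB (GGGAA, any 3 bases and CC), ETS (CCGGAA), AP-1 (TGANTCA), C/EBP (TTGCNNAA), grainyhead (AACCNGTT), the GC box (GGGCGG) and the TATA box (TATAAA). The 2 promoters with matches to a motif of an inducible or epithelial factor are shown 5′ to 3′, in lower case with the matches in capitals.
LCN2, chr9:128149203-128149452, plus strand: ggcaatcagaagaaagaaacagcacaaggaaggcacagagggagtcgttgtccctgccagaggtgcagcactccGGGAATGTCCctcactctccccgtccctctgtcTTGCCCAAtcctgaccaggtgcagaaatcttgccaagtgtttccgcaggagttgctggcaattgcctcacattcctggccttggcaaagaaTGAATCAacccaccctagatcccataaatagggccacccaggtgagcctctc
KLK5, chr19:50953039-50953288, minus strand: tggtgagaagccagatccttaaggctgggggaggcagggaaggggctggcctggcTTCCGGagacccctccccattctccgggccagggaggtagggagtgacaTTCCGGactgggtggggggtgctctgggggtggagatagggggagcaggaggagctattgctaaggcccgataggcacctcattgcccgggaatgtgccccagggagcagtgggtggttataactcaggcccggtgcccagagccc

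In the LCN2 promoter the first run of capitals, GGGAATGTCC, matched the NF-kB motif 176 to 167 bases before the start, and 6.02% of 35116 RefSeq promoters of the same length hold a match. It was followed by TTGCCCAA, a match to the C/EBP motif (143 to 136 bases before the start, held by 9.05% of promoters), and by TGAATCA, a match to the AP-1 motif (52 to 46 bases, 6.57%). In the KLK5 promoter TTCCGG, the ETS motif read on the other strand, stood 195 to 190 and again 146 to 141 bases before the start, and 14.5% of promoters hold at least 1 match. PROM2 had a GC box 89 to 84 bases before its start, as do 42.6% of promoters, and neither EHF promoter held a match to any of the 7. These are matches of letters in a window, and binding of any factor was not measured.

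The relatives of the 6 genes and other genes of the same roles were followed in 13 lists, which were drawn up with earlier results of these data known. Of 239 other genes measured, 65 were higher on every knockout array than on any wild-type array, or 27.2%, against 14.1% of all genes. The arrays did not overlap in the other direction for 17, or 7.11%, against 7.08% of all genes, where 21.2% had no overlap in either direction. The median difference was 0.30. After centring each array on its median, an alternative added after seeing the data, the share of higher genes was 18.4% against 11.5% of all genes. Only CEACAM1 among the 239 passed the adjusted p, where 0.655% of genes passed in either direction and 0.175% as lower. At an unadjusted p under 0.05 there were 43 higher and 14 lower genes, and of all genes 8.29% were higher and 5.24% lower at that level, 13.5% in all. In the sentences that follow, genes that missed the adjusted p are given with their values and are not called changed. The counts without overlap given below for each list use the deposited values. They are to be set beside 14.1% of all genes higher and 7.08% lower. After median centring those shares of all genes were 11.5% and 10.1%.

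**Figure D2:**
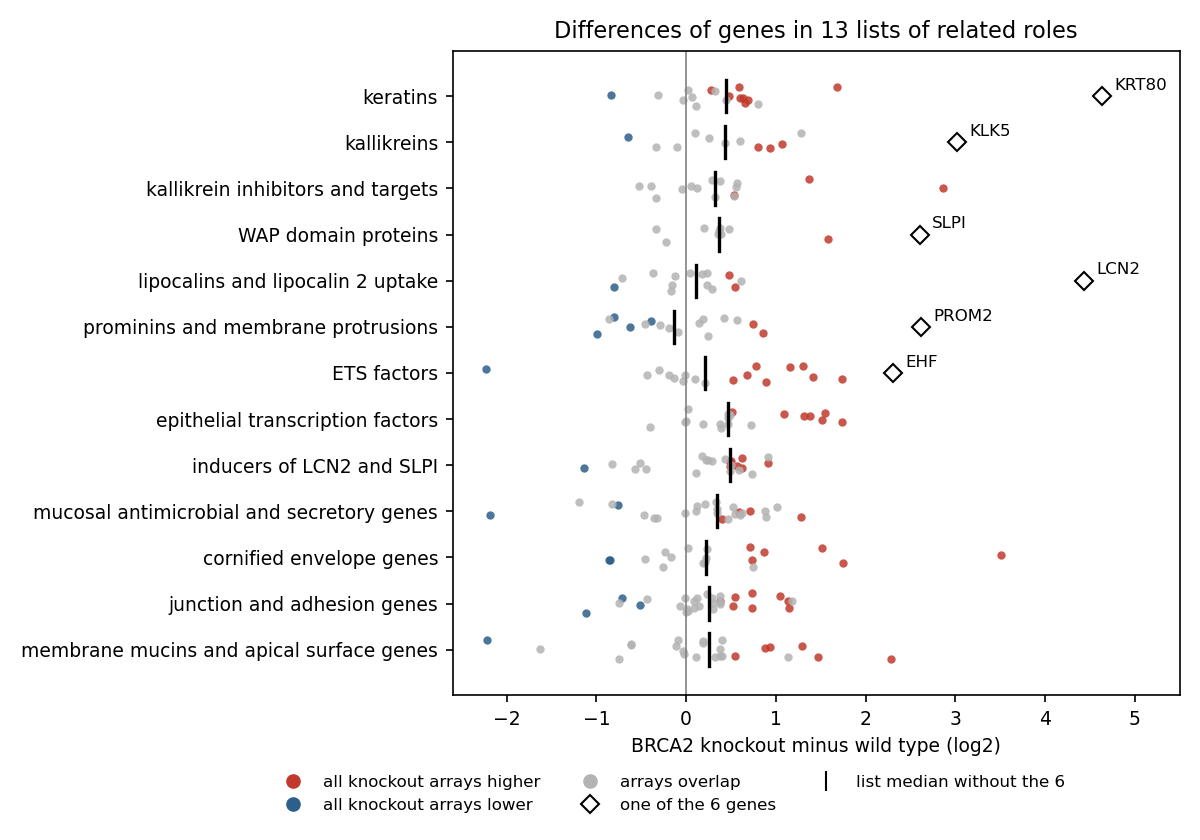
Knockout minus wild-type difference (log2, horizontal axis) of each measured gene in 13 lists, coloured by whether the arrays of the genotypes overlap, with the list medians without the 6 genes as black ticks and the 6 genes as open diamonds. The diamonds stand to the right of all other members of their own lists, and the medians of those 6 lists without them lie between -0.14 and 0.45. The 6 genes were chosen for this difference, so nothing is read from the place of the diamonds.

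ETS factors were the relatives of EHF. Of 17 measured besides EHF, 8 were higher on every knockout array and 1 was lower, and none passed the adjusted p, while 7 higher and 1 lower had an unadjusted p under 0.05. The list median was 0.21. ELF5, a factor of mammary and other secretory epithelia, had values of 6.55, 7.30 and 6.40 on the knockout arrays, against 5.33, 4.75 and 4.96 on the wild-type arrays. All knockout arrays were thus above the wild-type arrays, with a difference of 1.74 ± 0.33 (adjusted p = 0.0979). Its adjusted p ranged from 0.019 to 0.551 over the alternatives, and it passed after median centring, after quantile normalization and with array weights.

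ELF3, the best known epithelial ETS factor of the intestine, had 7.77, 7.97 and 7.85 on the knockout arrays, against 6.54, 6.77 and 6.80 on the wild-type arrays (difference 1.16 ± 0.24, adjusted p = 0.125). SPDEF, which acts in goblet cells, differed by 0.89 ± 0.37 (adjusted p = 0.404), with the knockout arrays higher. On the deposited values the 3 epithelial relatives of EHF were thus each higher without overlap, as were 14.1% of all genes. All 3 missed the threshold in the fit, and with array medians subtracted the arrays of SPDEF overlapped. Outside that branch, the repressor gene ETV6 differed by 1.41 ± 0.25 (adjusted p = 0.0764) and ETS1 by 1.30 ± 0.31 (adjusted p = 0.165).

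ETV1, an ETS factor of the PEA3 group, ran the other way. Its values were 6.95, 8.15 and 6.67 on the knockout arrays, against 9.79, 9.19 and 9.48 on the wild-type arrays. Its difference was -2.23 ± 0.43 (adjusted p = 0.0979, and 0.0022 to 0.501 over the alternatives), and without knockout array 2 it was -2.68 and passed.

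Other transcription factors of epithelia had a median difference of 0.46 over 19 measured genes. Of these, 7 were higher on every knockout array and none was lower, and none passed the adjusted p, while an unadjusted p under 0.05 was reached by 6 higher and 0 lower. TFAP2C, an AP-2 factor of surface ectoderm, had 9.47, 9.72 and 9.0 on the knockout arrays, against 7.98, 7.47 and 7.54 on the wild-type arrays. Each knockout array lay above every wild-type array, and the difference of 1.73 ± 0.30 missed the threshold (adjusted p = 0.0766, and 0.00503 to 0.488 over the alternatives). Its relative TFAP2A differed by 1.55 ± 0.34 (adjusted p = 0.134). OVOL1, a zinc finger factor of epithelial differentiation, differed by 1.51 ± 0.32 (adjusted p = 0.130), and KLF5, a factor of intestinal crypts, by 1.38 ± 0.25 (adjusted p = 0.0857).

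**Figure D3:**
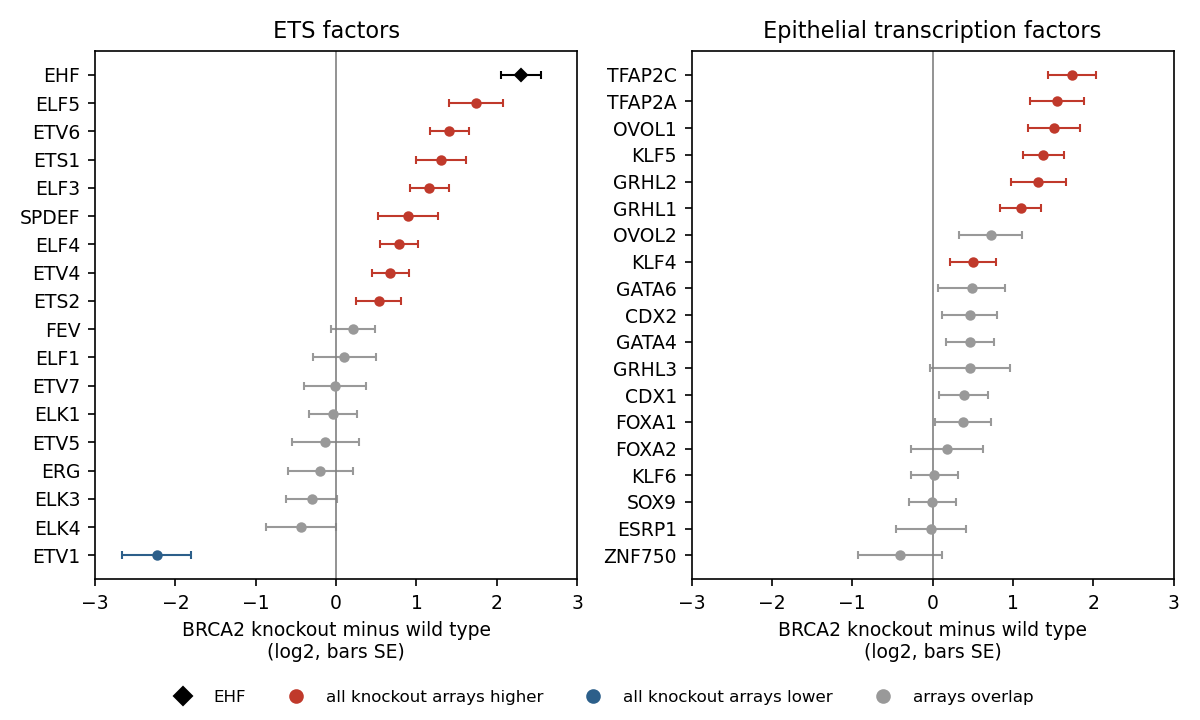
Knockout minus wild-type difference (log2, bars SE of the fit) of 18 ETS factors, EHF included, and of 19 other epithelial transcription factors, coloured by whether the 3 arrays of each genotype overlap. EHF, which was chosen for its difference, has the largest positive one among the ETS factors shown (2.30), followed by ELF5 (1.74). ETV1 has the largest negative difference (-2.23).

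Keratins other than KRT80, which was itself chosen for its difference, had smaller differences. Of 17 measured, 8 were higher and 1 was lower without overlap, against 14.1% and 7.08% of all genes. With array medians subtracted, KRT7 and KRT15 alone of those 8 kept no overlap. None of the 17 passed the adjusted p, 1 higher and 1 lower gene passed the unadjusted level, and the median was 0.45. KRT7, a simple epithelial keratin whose gene is next to KRT80 among the measured genes of chromosome 12, had 8.50, 8.67 and 8.92 on the knockout arrays, against 7.16, 7.05 and 6.81 on the wild-type arrays. It differed by 1.68 ± 0.26 and missed the threshold narrowly (adjusted p = 0.0509). Over the alternatives its adjusted p was 0.00866 to 0.492, and it passed after quantile normalization among others. The main keratins of colon epithelium differed less, by 0.65 ± 0.29 for KRT8, 0.60 ± 0.31 for KRT19 and 0.28 ± 0.23 for KRT18.

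KRT20, the keratin of mature enterocytes, was at 5.95 ± 0.68 in knockout and 5.93 ± 0.20 in wild type, a difference of 0.02 ± 0.38. Stratified keratins KRT13 (0.69 ± 0.34) and KRT78 (0.80 ± 0.44) also missed the threshold. KRT23 had a difference of -0.84 ± 0.31 (adjusted p = 0.347), with every knockout array lower.

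Kallikrein genes form a cluster on chromosome 19. Of 11 others, 3 were higher and 1 was lower without overlap, and none passed the adjusted p, against 3 higher and 1 lower gene past the unadjusted level. KLK6 had 10.55, 10.51 and 10.79 on the knockout arrays, against 9.44, 9.65 and 9.57 on the wild-type arrays, a difference of 1.07 ± 0.24 (adjusted p = 0.148). KLK10 differed by 0.93 ± 0.26 (adjusted p = 0.216) and KLK14, a protease that KLK5 is known to activate, by 0.80 ± 0.34 (adjusted p = 0.405). KLK11 differed by 1.28 ± 0.74, but wild-type array 1 (5.54) was far below wild-type arrays 2 and 3 (8.03 and 8.38), and the genotypes overlapped.

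KLK7, the chymotrypsin-like partner of KLK5 in skin, had 8.37, 8.54 and 8.60 on the knockout arrays, against 8.82, 9.35 and 9.28 on the wild-type arrays. All knockout arrays were the lower ones, with a difference of -0.65 ± 0.26 (adjusted p = 0.393). Of 15 inhibitors, targets and other surface proteases, 3 were higher and 0 lower without overlap and none passed, with 2 higher and 0 lower at the unadjusted level. The epithelial serine protease gene PRSS22 differed by 1.37 ± 0.28 (adjusted p = 0.125), the antichymotrypsin gene SERPINA3 by 0.57 ± 0.32, the hepsin gene HPN by 0.55 ± 0.35 and the prostasin gene PRSS8 by 0.54 ± 0.27. TMPRSS4, a membrane serine protease gene named after its values were seen, had 6.36, 6.75 and 6.76 on the knockout arrays, against 5.02, 3.21 and 3.04 on the wild-type arrays (difference 2.87 ± 0.54, adjusted p = 0.0927). With values under 4 set to 4 the difference of TMPRSS4 was 2.29, and over the alternatives its adjusted p was 0.0118 to 0.43.

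Many WAP domain genes lie in a cluster with SLPI on chromosome 20. None of the 9 others measured passed the adjusted p. Without overlap 1 was higher and 0 were lower, 1 higher and 0 lower had an unadjusted p under 0.05, and the median was 0.37. The elafin gene PI3, another secreted elastase inhibitor of the WAP family, was at 4.66 ± 0.99 in knockout and 4.45 ± 0.63 in wild type, with overlap and a difference of 0.20 ± 0.55. WFDC2 differed by 0.36 ± 0.32, WFDC12 by 0.47 ± 0.32, WFDC11 by 0.37 ± 0.36, WFDC10B by 0.38 ± 0.62 and WFDC1 by 0.39 ± 0.63, all with overlap. The gene without overlap was WFDC13, named after its values were seen, at 1.58 ± 0.36 (adjusted p = 0.153) from a wild-type mean of 3.42, and at 0.99 with values under 4 set to 4.

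Lipocalins and genes of lipocalin 2 uptake gave 2 higher and 1 lower gene without overlap among 14 measured besides LCN2, none past the adjusted p, 0 higher and 1 lower at the unadjusted level, and a median of 0.11. SLC22A17, reported as a receptor for lipocalin 2, was at 7.70 ± 0.39 in knockout and 7.22 ± 0.06 in wild type (difference 0.48 ± 0.28, adjusted p = 0.549). Among other lipocalins the differences were 0.61 ± 0.35 for the prostaglandin D synthase gene PTGDS, 0.54 ± 0.29 for the complement gene C8G, -0.72 ± 0.37 for AMBP and -0.81 ± 0.33 for APOD. Of 23 factors and receptors known to act on LCN2 or SLPI, 7 were higher and 1 was lower without overlap, against 14.1% and 7.08% of all genes. With array medians subtracted, NFKB2, NFKBIA and CEBPD of those 7 overlapped. None of the 23 passed the adjusted p, 2 higher and 1 lower did so unadjusted, and the median was 0.49. The NF-kB subunit gene RELB differed by 0.91 ± 0.29 (adjusted p = 0.269) and TNF by 0.91 ± 0.54, with a range for TNF from 0.42 to 1.81 over the alternatives. The cytokine feedback gene SOCS3 had a difference of -1.14 ± 0.43 (adjusted p = 0.354), with every knockout array lower, and IL1R1 one of -0.82 ± 0.44.

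Other secreted defence genes of mucosa came to 26 measured. Of these, 4 were higher and 2 lower without overlap, none passed the adjusted p, 4 higher and 2 lower did so unadjusted, and the median was 0.34. The calprotectin genes S100A8 (0.12 ± 0.52) and S100A9 (0.87 ± 0.64) had overlapping arrays. Wild-type array 1 was the lowest for S100A9 at 2.75, and the difference of S100A9 was 0.19 without that array and 1.57 without wild-type array 2. S100A16 had a difference of -0.76 ± 0.24 (adjusted p = 0.266). TCN1, named after its values were seen, had one of -2.18 ± 0.81 (adjusted p = 0.351), with every knockout array lower and a knockout mean of 2.95. CHI3L1, which encodes a secreted chitinase-like protein, had 8.39, 7.47 and 8.32 on the knockout arrays, against 6.45, 7.43 and 6.45 on the wild-type arrays (difference 1.28 ± 0.40, adjusted p = 0.266). The chemokine gene CXCL8 differed by 1.02 ± 0.37 (adjusted p = 0.345), with overlap.

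PROM2 had 16 measured genes of prominins and surface protrusions beside it, of which 2 were higher and 4 lower without overlap, none past the adjusted p but 2 higher and 2 lower at the unadjusted level, with a median of -0.14. PROM1, the other prominin gene, had 6.71, 8.87 and 6.96 on the knockout arrays, against 8.02, 6.72 and 7.25 on the wild-type arrays. Knockout array 2 and wild-type array 1 were the highest, the genotypes overlapped and the difference was 0.18 ± 0.63. The actin regulator gene EPS8 differed by 0.86 ± 0.24 (adjusted p = 0.226). Differences of the opposite sign were found for the raft protein gene FLOT1 (-0.99 ± 0.27, adjusted p = 0.209), the microvillar myosin gene MYO7B (-0.86 ± 0.44) and the fascin gene FSCN1 (-0.81 ± 0.26, adjusted p = 0.281).

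CEACAM1, an adhesion molecule gene of epithelial surfaces, rose in the knockout. Its values were 7.64, 7.79 and 7.59 on the knockout arrays, against 5.79, 5.49 and 4.87 on the wild-type arrays, with no overlap. The means were 7.67 ± 0.10 in knockout and 5.39 ± 0.47 in wild type, a difference of 2.28 ± 0.31 (limma, adjusted p = 0.0338). The call was lost when any 1 array was left out and in the test without moderation, and over the alternatives the adjusted p was 0.00441 to 0.289. Among the 24 membrane mucins and apical surface genes that held it, 6 were higher and 1 was lower without overlap, and the median was 0.26. MSLN, the mesothelin gene, differed by 1.46 ± 0.28 (adjusted p = 0.0979), MAL2, which acts in transcytosis, by 1.29 ± 0.31 (adjusted p = 0.165) and CD24 by 1.14 ± 0.39 (adjusted p = 0.299). The membrane mucin gene MUC13 gave -1.63 ± 0.89, with knockout values of 6.11, 4.56 and 2.23. ANXA10, named after its values were seen, had a difference of -2.22 ± 0.48 (adjusted p = 0.133), with every knockout array lower. Its mean was 3.80 in knockout and 6.02 in wild type.

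Junction and adhesion genes gave 8 higher and 3 lower of 30 without overlap, none past the adjusted p, 5 higher and 2 lower past the unadjusted level, and a median of 0.26. CDH1 had 11.34, 11.33 and 11.64 on the knockout arrays, against 10.28, 10.34 and 10.25 on the wild-type arrays, a difference of 1.15 ± 0.24 (adjusted p = 0.127). The tight junction genes CLDN1 (1.18 ± 0.53) and CGN (1.14 ± 0.41) also missed the threshold, and the desmosomal cadherin gene DSC3 gave -1.11 ± 0.29 (adjusted p = 0.194), with every knockout array lower. Cornified envelope genes gave 6 higher and 2 lower of 18 without overlap, none past the adjusted p, 4 higher and 2 lower past the unadjusted level, and a median of 0.22. The transglutaminase gene TGM1 differed by 1.74 ± 0.36 (adjusted p = 0.125) and CALML3 by 0.87 ± 0.30, while CSTA (-0.85 ± 0.32) and LYPD3 (-0.85 ± 0.36) were lower on every knockout array. ABCA12, a lipid transporter gene named after its values were seen, had 7.17, 7.80 and 7.10 on the knockout arrays, against 4.86, 2.64 and 4.02 on the wild-type arrays (difference 3.51 ± 0.56, adjusted p = 0.0590). With values under 4 set to 4 the difference of ABCA12 was 3.06 and passed, and over the alternatives its adjusted p was 0.00166 to 0.326.

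The chromosomal neighbours of the 6 genes were examined next, as the 5 nearest measured genes on each side in the RefSeq order. None of the 60 neighbours passed the adjusted p, 9 higher (15%) and 2 lower (3.33%) had an unadjusted p under 0.05, against 8.29% and 5.24% of all genes. Without overlap 14 were higher (23.3%) and 4 lower (6.67%), against 14.1% and 7.08% of all genes. Their median difference was 0.23. On chromosome 11 ELF5 is next to EHF, and on chromosome 12 KRT7 is next to KRT80, with the values given above. NR4A1, a nuclear receptor gene 2 places from KRT80 that was named after its values were seen, differed by 1.67 ± 0.28 (adjusted p = 0.0662). Around LCN2 the neighbours' differences ran from -0.11 to 0.70, around SLPI from -0.58 to 0.62, around PROM2 from -0.89 to 0.91 and around KLK5 from -0.65 to 1.28.

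**Figure D4:**
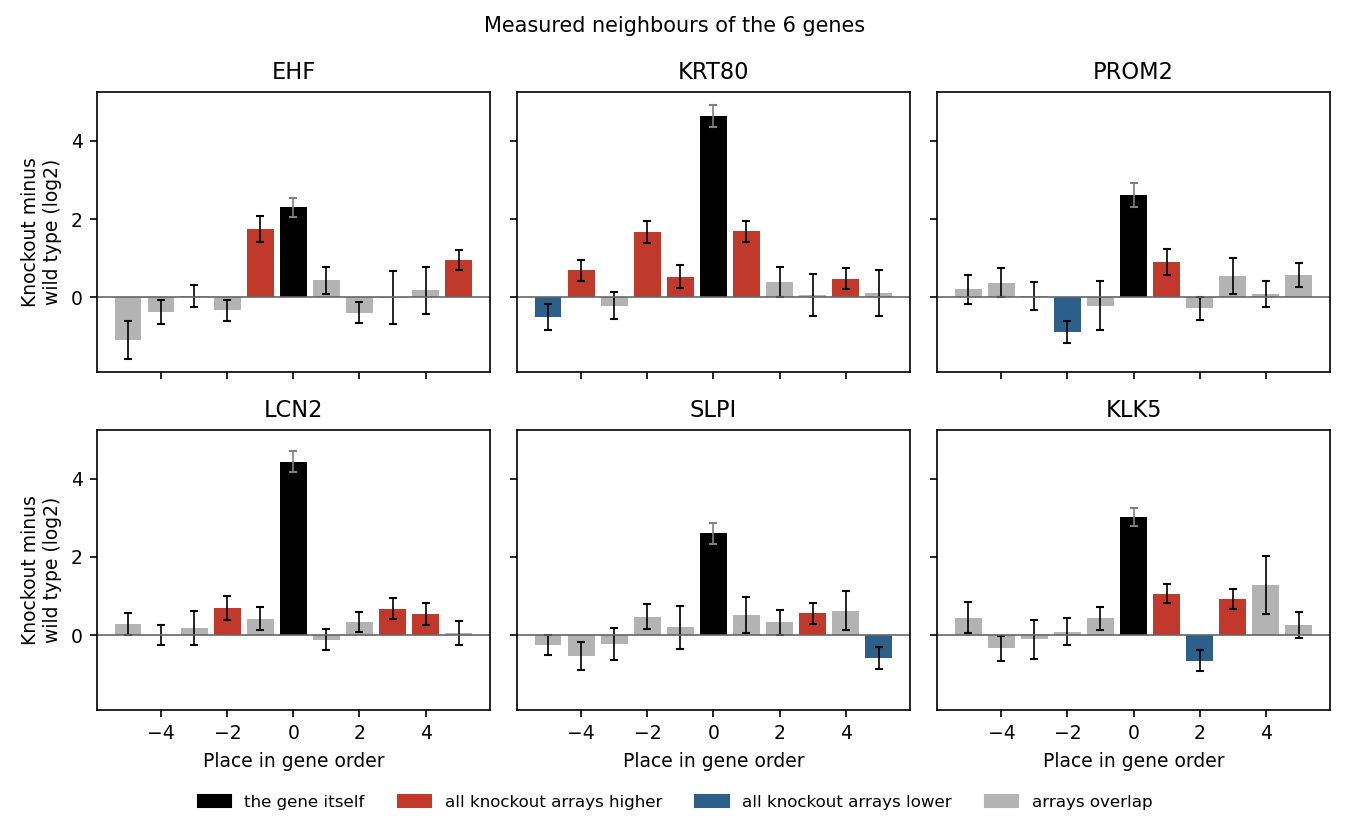
Knockout minus wild-type difference (log2, bars SE of the fit) of the 5 measured genes on each side of EHF, KRT80, PROM2, LCN2, SLPI and KLK5, against their place in the RefSeq gene order, with the gene itself in black at 0 and the others coloured by whether the arrays of the genotypes overlap. The black bar is the tallest in each panel, and the next tallest are ELF5 beside EHF (1.74) and KRT7 beside KRT80 (1.68). The genes in black were chosen for this difference, so nothing is read from their height above the neighbours.

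The genes with the profile most like each of the 6 over the 6 arrays were found by the root mean square distance between profiles centred on their own mean, and since that measure holds the genotype difference they are a description. Nearest to EHF were SYBU (distance 0.12), the tetraspanin gene TSPAN1 (0.15) and FXYD3, a regulator of the sodium pump (0.18), with differences from 2.00 for FXYD3 to 2.20 for SYBU. Nearest to KRT80 and also to LCN2 was BAMBI, a decoy receptor gene of TGF-beta signalling (0.17 and 0.20), with 11.12, 11.23 and 11.47 on the knockout arrays, against 7.06, 6.61 and 6.79 on the wild-type arrays. SPARC, a matricellular protein gene (0.33 from KRT80 and 0.49 from LCN2), and the zinc finger factor gene GLIS3 (0.53 and 0.48) were farther off.

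Nearest to PROM2 were the inhibitory SMAD gene SMAD6 (0.16), the hyaluronan-binding protein gene CEMIP (0.16) and the neuropilin gene NRP2 (0.17). These 3 had their highest value on knockout array 2, as PROM2 did. SMAD6 and NRP2 missed the threshold in the limma fit (adjusted p = 0.0541 and 0.0547), with low wild-type means of 3.78 and 4.33. Nearest to KLK5 were ALOX5, the 5-lipoxygenase gene of leukotriene synthesis (0.12), STXBP6 (0.15) and the transcription factor gene CREB5 (0.20). STXBP6 (0.25) and ALOX5 (0.27) were also nearest to SLPI, followed by EMP1, an epithelial membrane protein gene (0.30). ALOX5 had 8.85, 9.01 and 8.90 on the knockout arrays, against 5.83, 5.89 and 6.13 on the wild-type arrays.

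LCN2 and SLPI are also products of neutrophils, and several of the other genes are products of squamous epithelium, so markers of other cell types were set beside them. Of 10 neutrophil markers, 1 was higher and 1 was lower without overlap, against 14.1% and 7.08% of all genes. None of the 10 passed the adjusted p. Their mean level per array ranged from 5.43 to 6.53 in knockout and from 5.86 to 6.28 in wild type. The granule genes AZU1 (1.00 ± 0.40), BPI (0.85 ± 0.39) and LTF (0.60 ± 0.41) and the receptor gene CSF3R (0.57 ± 0.43) had the largest differences among markers with a mean of at least 4 in both genotypes. Below that level, and named after their values were seen, MMP8 had a difference of -2.36 ± 0.63 (adjusted p = 0.203), with every knockout array lower, and CEACAM8 one of -2.06 ± 0.97, with overlap. Among all 10, 1 higher and 1 lower marker had an unadjusted p under 0.05, against 8.29% and 5.24% of all genes. Of 7 squamous markers, 2 were higher without overlap, against 14.1% of all genes, none passed and 0 had an unadjusted p under 0.05. Their mean level per array ranged from 6.73 to 7.31 in knockout and from 6.71 to 6.90 in wild type. The genes without overlap were KRT10 (0.59 ± 0.26) and KRT13 (0.69 ± 0.34), while DSG3 (0.37 ± 0.34) and DSG1 (-0.34 ± 0.45) overlapped. With array medians subtracted, KRT10 and KRT13 overlapped too.

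Lymphocyte and monocyte markers gave 2 higher and 0 lower of 8 without overlap, against 14.1% and 7.08% of all genes. The mean levels of these markers ran from 6.27 to 6.92 in knockout and from 6.14 to 6.62 in wild type. At an unadjusted p under 0.05 there was 1 higher lymphocyte or monocyte marker and 1 higher fibroblast or endothelial marker, against 8.29% of all genes. The 2 without overlap were CD8A (0.63 ± 0.25) and CD68 (0.51 ± 0.29), and CD3E (0.73 ± 0.68) and CD3D (-0.57 ± 0.38) had overlapping arrays. With array medians subtracted, CD68 overlapped and CD8A did not. Fibroblast and endothelial markers had mean levels from 5.77 to 6.67 in knockout and from 5.65 to 6.49 in wild type. Of the 11 measured, 1 was higher without overlap, the collagen gene COL1A1 (1.10 ± 0.26, adjusted p = 0.159), and VWF (1.30 ± 0.62), CDH5 (0.46 ± 0.41) and COL1A2 (0.36 ± 0.42) overlapped. None of these markers passed the adjusted p, and their part in the values of the 6 genes was not tested. In a bulk culture a change in the share of cells that express a gene and a change in its RNA per cell cannot be told apart.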

How the data were processed

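Transcripts were measured on Affymetrix whole-transcript arrays, 3 of BRCA2 knockout and 3 of wild-type HCT116 cells, after removal of ribosomal RNA, per the labels' protocols. The deposited values are the authors' probe set summaries, on a log2 scale as judged from their range. The submitters' processing notes list RMA, R 2.11.1 and hg18 with no roles, and the steps run are not given in the sources used here. Array medians differ, so the deposited values do not share 1 distribution, and values below 0 (5 to 83 per array) are poorly determined. Precision is limited by having 6 arrays.

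Genes were taken from the 13301 of 19458 probe sets with 1 symbol in the platform annotation (2044 had several, 4113 none), using the probe set of highest mean per gene. RefSeq GRCh38.p14 gave chromosomes and gene order. Genotypes were compared on the deposited values with limma 3.58.1 (R 4.3.3, lmFit and eBayes), two-sided, with Benjamini-Hochberg adjustment over all probe sets and calls at an adjusted p under 0.05. Genes and lists were chosen with earlier results of these data known. Named by rule were the 6 genes, called list members and neighbours, the 4 largest uncalled differences of each list with means of at least 4 in both genotypes, a fixed set of relatives and the 3 nearest profiles. KLK8, SPINK5 and NFKBIZ of that set were not analysed here. In simulated data for 19458 probe sets at the observed spread, 0%, 42%, 68% and 88% of 50 changes each of 1, 2, 3 and 4 on the log2 scale were recovered, with 4 false among 103 calls. The simulated arrays varied independently, whereas knockout array 2 and wild-type array 1 deviated together in the data (r = 0.49). These shares therefore do not give the error rate of the real calls. Alternatives changed the scaling, the floor, the filter, the variance model, the arrays kept and the block.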

Additional observations from a re-analysis of the deposited data

How the results depend on the processing

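The differences of the 6 genes kept their sign under the 14 alternatives run for each. They ranged from 2.20 to 2.37 for EHF, 4.52 to 4.92 for KRT80, 2.37 to 2.79 for PROM2, 4.26 to 4.59 for LCN2, 2.48 to 2.73 for SLPI and 2.98 to 3.05 for KLK5, and their median ranged from 2.75 to 2.90. Calls depended more on the processing, and the cause was not tested. The number of probe sets called was 111 as deposited, 175 after median centring, 174 after quantile normalization, 169 with a floor of 4, 184 without the dimmest 30%, 396 with a variance trend, 778 with array weights, 86 without moderation, 24 to 63 with any 1 array left out and 7 without both arrays of highest median. Of the 6 genes, 3 were called without knockout array 1 or 3 or without any 1 wild-type array, EHF, PROM2 and SLPI being lost, 1, KRT80, without both arrays of highest median, and 5 without moderation, PROM2 being lost. Of the other list genes, CEACAM1 alone was called as deposited. The number was 5 after median centring and with a floor of 4, 6 after quantile normalization, 7 without the dimmest 30%, 20 with a variance trend, 29 with array weights, 0 without moderation, 0 or 1 with any 1 array left out and 0 without both. Of the neighbours, 0 were called as deposited, 1 after median centring, 2 after quantile normalization, with a floor of 4 or without the dimmest 30%, 3 with a variance trend and 5 with array weights. The count of 65 list genes higher without overlap became 102 when both of those arrays were dropped, where fewer arrays make overlap rarer (42.7% against 26.3% of all genes), and 71 to 90 with any 1 array left out.

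Deviations of same-numbered arrays from their genotype means correlated at r = -0.24, -0.43 and 0.06 for numbers 1, 2 and 3. Knockout array 2 and wild-type array 1 deviated together (r = 0.49). Deviations from a mean of 3 arrays constrain each other, so these values cannot settle whether the numbers pair the arrays. With the replicate block 3 probe sets were called, 0 of them among the 6 genes, and 0 of the other list genes, with the median difference of the 6 at 2.81.

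Of 84 uncalled named list genes followed under the alternatives, 45 moved by over 1.5 times under at least 1 of them. Of 99 named genes other than the 6 that were followed in this way, 7 changed sign under some alternative. With any 1 array left out, KRT20 ranged from -0.37 to 0.25, PI3 from -0.31 to 0.68, PROM1 from -0.49 to 0.58, S100A8 from -0.50 to 0.48, WFDC1 from -0.065 to 1.10 and WFDC10B from -0.30 to 0.76. KRT20 was at -0.0046 after median centring, S100A8 at -0.11 with a floor of 4, PROM1 at -0.066 with array weights and -0.15 without both arrays of highest median, and CD3E at -0.022 with array weights.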
